A study of Mus musculus with 40 samples.

Results

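The comparison described here sets 5 uterine RNA libraries from mice given doxorubicin together with anti-Müllerian hormone (AMH) against 5 uterine libraries from mice given vehicle, both collected 24 h after treatment. These 10 libraries were taken by their labelled treatment and time from 40 libraries of the series, which also holds doxorubicin alone, AMH alone and a 4 h collection of every treatment, with 5 libraries per group. Doxorubicin was given at 3 mg/kg and AMH at 0.75 mg/kg, and the vehicle was PBS or saline. Per the series text, the mice were prepubertal, at postnatal day 25, and received 2 weekly doses of doxorubicin with AMH given alongside. The uterus had therefore met the drug before the last dose, and what each dose contributed cannot be told apart. Strain, sex and the number of animals behind a library are not stated in the sources used here. Only a biological replicate number from 1 to 5 is given. The p-values below thus rest on the spread between libraries, which the main fit pools over all 8 groups of the series. The gene table gave values for 54532 genes in FPKM, which is the fragment count of a gene divided by its length and by a total set for each library. Of these, 30965 were above 0 in at least 1 of the 10 libraries. The 14141 genes with 1 FPKM or more in at least 5 of the 10 libraries were tested, and 12435 of them are protein-coding.

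Doxorubicin traps topoisomerase II on cut DNA, so that replication and transcription meet double-strand breaks. The transcription factor p53 is stabilised by such breaks and turns on Cdkn1a, which halts the cell cycle, along with repair and death genes. AMH is a hormone of the TGF-beta superfamily that binds the receptor Amhr2, pairs it with BMP type I receptors such as Acvr1 and Bmpr1a, and signals through SMAD1, SMAD5 and SMAD9. In the male embryo this signal removes the Müllerian duct, the duct that in the female forms the oviducts and the uterus, and Id genes are common direct targets of these SMADs. In the uterus of young females oestrogen drives epithelial secretion, proliferation and chaperone genes, so a library's oestrogen state can touch many genes.

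The level of oestrogen-responsive genes differed between the vehicle libraries. No hormone was measured, and "high-oestrogen" below means only high in these genes. The mean log2(FPKM + 1) of 35 tested oestrogen-responsive genes lay between 3.62 and 3.92 in the 5 doxorubicin + AMH uteri, and was 4.97, 5.42, 3.78, 4.86 and 3.97 in vehicle uteri 1 to 5. Vehicle uteri 1, 2 and 4 were thus 1.068, 1.512 and 0.956 above the median of all 40 libraries, and no doxorubicin + AMH uterus was more than 0.6 above it. Results below are therefore given with all libraries and again without every library of the series that exceeded this 0.6 threshold, which leaves 2 vehicle uteri at 24 h, 3 and 5. A second difference touched treated uteri 4 and, less so, 5. Their mean log2(FPKM + 1) over oviduct and ciliated cell genes was 4.75 and 3.28, against 2.11 to 2.68 in vehicle uteri. Ovgp1, the oviduct's secreted glycoprotein, was at 0.956, 1.01, 0.221, 331 and 75.5 FPKM in doxorubicin + AMH uteri 1 to 5, against 0.886, 0.498, 1.8, 29.5 and 1.04 FPKM in vehicle uteri, and Foxj1, the regulator of ciliated cells, was at 29.3 FPKM in doxorubicin + AMH uterus 4 and between 0.544 and 2.28 FPKM in the other 9 libraries, vehicle uteri included. The uterine patterning genes were present throughout, with Hoxa10 at 66.1 to 99.4 FPKM in doxorubicin + AMH uteri and 41.6 to 129 FPKM in vehicle uteri, and Hoxa11 at 44.2 to 59.3 FPKM in doxorubicin + AMH uteri and 25.9 to 69.7 FPKM in vehicle uteri. The reads rebuilt from the FPKM steps ranged from 18293669 to 24209094 per library in the treated group and from 16828077 to 27391049 in the vehicle group. The genes' median standard deviation within a group, on the log2 scale, was 0.197 in doxorubicin + AMH uteri and 0.28 in vehicle uteri. At 24 h it was 0.217 with doxorubicin alone and 0.264 with AMH alone, and in the 4 h groups 0.137 to 0.187. The main fit shares 1 spread per gene over all 8 groups, while the fit of the 10 libraries alone uses only the 2 groups compared.

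**Figure D1:**
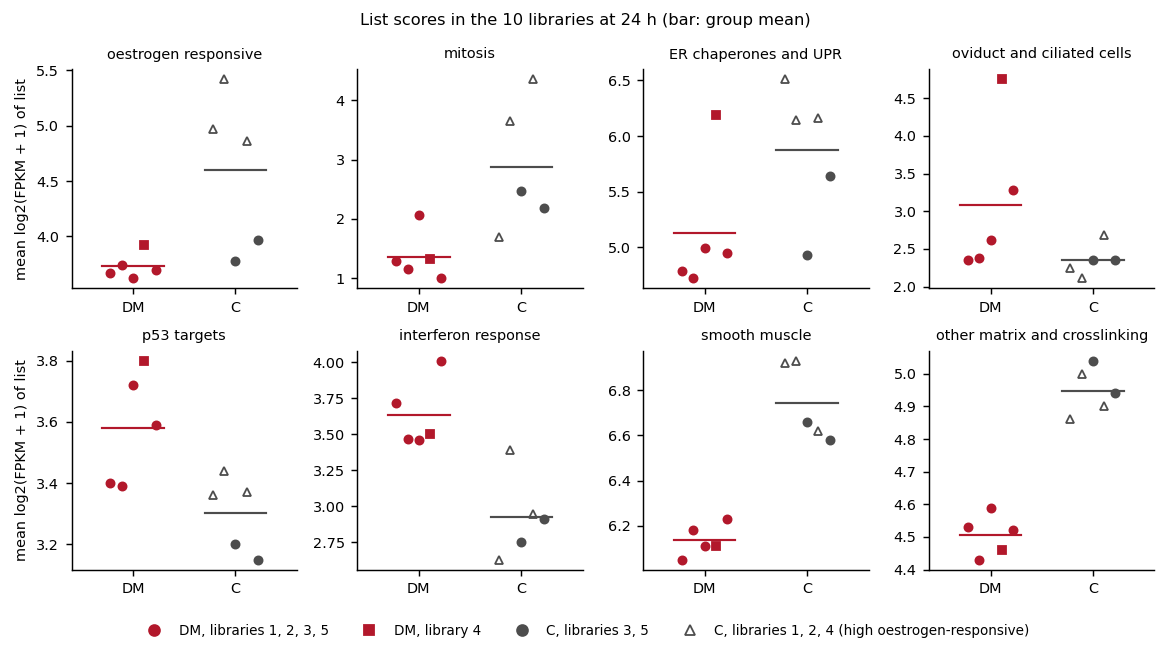
Mean log2(FPKM + 1) of 8 gene lists in each library, with doxorubicin + AMH uteri (DM) left of vehicle uteri (C), bars at the group means and open triangles for vehicle uteri 1, 2 and 4. The triangles sit high in the oestrogen panel (4.86 to 5.42), doxorubicin + AMH uterus 4 (square) sits highest in the oviduct panel, and the smooth muscle and matrix panels separate all 5 treated from all 5 vehicle uteri.

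Promoter sequences from 3 gene lists, interferon, AMH and BMP, and heat shock, are shown first, because each pathway has a well-known DNA element. In the test below, 19 of 40 interferon genes were higher and 21 of 22 heat shock genes lower, with none the other way. Of 31 AMH and BMP genes 14 were higher and 4 lower. The sequences are from RefSeq on build GRCm38.p6, read from the 250 bases before each annotated start, and capitals mark the motif. A list gene was counted when any of its promoters held the motif, while the share of all promoters counts each promoter singly. The 2 shares are thus in unlike units, which favours the lists. The interferon-stimulated response element core (GAAA, any 2 bases, GAAA, on either strand) was found in 16 of the 31 interferon list genes with an entry (51.6%), against 2.98% of all 32851 promoters. Ifit3 and its neighbouring copy Ifit3b share the same 114 bases and carry the core, on the minus strand of the run as printed, at 2 positions, 156 and 122 bases before the start in Ifit3 and 188 and 154 bases before it in Ifit3b.
Ifit3 (chr19:34583338-34583451, plus strand): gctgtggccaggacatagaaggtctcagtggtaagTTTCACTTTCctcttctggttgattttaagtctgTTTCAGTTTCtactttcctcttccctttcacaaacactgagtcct
Ifit3b (chr19:34607734-34607847, plus strand): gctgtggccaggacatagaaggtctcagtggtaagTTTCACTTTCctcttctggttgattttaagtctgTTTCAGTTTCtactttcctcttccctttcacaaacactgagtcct
The BMP SMAD element GGCGCC was found in 10 of 23 AMH and BMP list genes with an entry (43.5%), against 9.59% of all promoters. Id2 and Smad9, both higher after treatment, hold it 231 and 51 bases before the start. Coch, also higher, holds it as well. Id3, Smad6, Atoh8 and Amhr2 were higher too and have entries without it. Of the type I receptors, both lower, Bmpr1a holds it and Acvr1 does not. The element thus did not follow the direction of change among these genes. The Id2 run lies within a longer annotated Id2 transcript but in none of its exons.
Id2 (chr12:25096283-25096342, minus strand): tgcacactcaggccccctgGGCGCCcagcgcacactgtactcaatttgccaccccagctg
Smad9 (chr3:54755496-54755571, plus strand): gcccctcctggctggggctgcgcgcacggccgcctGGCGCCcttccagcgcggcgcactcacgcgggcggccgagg
A pair of heat shock units, GAANNTTC, was found in 7 of 18 heat shock list genes with an entry (38.9%), against 6.69% of all promoters. The neighbouring copies Hspa1b and Hspa1a, both lower after treatment, have the same 78 bases around it, with the pair 104 bases before each start. Chordc1 and Dnajb1, also lower, have entries without it.
Hspa1b (chr17:34959300-34959377, minus strand): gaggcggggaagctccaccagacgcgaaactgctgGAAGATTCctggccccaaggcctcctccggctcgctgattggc
Hspa1a (chr17:34972218-34972295, minus strand): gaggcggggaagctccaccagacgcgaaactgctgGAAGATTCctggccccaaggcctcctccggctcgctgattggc
The p53 half-site core CATG was in 16 of the 32 p53 list genes with an entry (50%) and in 53.9% of all promoters, and the clock E-box CACGTG in 31.2% of the 16 clock list genes with an entry and 6.02% of all promoters. These matches describe letters in a window; binding was not measured.

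With all 40 libraries in a limma fit of 8 groups, 5379 of the 14141 genes differed between doxorubicin + AMH and vehicle uteri at an adjusted p under 0.05, which is 38.0% of those tested. Of these, 2386 were higher (16.9%) and 2993 lower (21.2%) in doxorubicin + AMH uteri. Of the calls 44.4% were thus higher, against 50.5% with median-of-ratios scaling and 69.1% when rebuilt reads were tested with voom. The fit of the 10 libraries alone called 1136 genes (8.03%), 563 higher (3.98%) and 573 lower (4.05%), of which 1126 were also among the 5379 in the same direction. Without the high-oestrogen libraries 122 genes were called (0.863%), 38 higher (0.269%) and 84 lower (0.594%). That fit holds only 2 vehicle uteri at 24 h, and fewer libraries alone can cost calls. A call lost there is thus no sign by itself that the difference shrank, and the fold changes are given beside it. Of the 5379 genes, 5047 kept their sign without those libraries, but their median size in the original direction was 0.21 on the log2 scale, against 0.53 with all libraries. The 2 groups of 5 did not overlap for 571 genes that were higher (4.04%) and 699 that were lower (4.94%) in the treated uteri. Called in the same direction in all 3 fits were 93 genes (0.658%), 28 higher (0.198%) and 65 lower (0.46%), and 87 of them did not overlap between the groups. Many of the genes described next are among these 93. List counts below are to be read beside the shares of all genes tested, 16.9% higher and 21.2% lower with all libraries. Fold changes are on the log2(FPKM + 1) scale, which understates those of low genes. The totals behind the FPKM were 1.0141 to 1.0567 times the rebuilt reads in doxorubicin + AMH uteri and 0.859 to 0.9987 times in vehicle uteri. The voom fit divided by the rebuilt reads instead. With voom the median of all genes moved by 0.14 and several list medians given below were over 1.5 times larger. They were 0.46 for p53 targets, 1.07 for interferon, 0.48 for AMH and BMP, 0.76 for WNT, 0.89 for hedgehog, 0.24 for injury and 1.08 for clock genes. That of immediate early genes was -0.13. The part of the unlike totals in these shifts was not tested. Where 2 fold changes are given for a gene, the first comes from all libraries and the second leaves out the high-oestrogen libraries. Values are listed for libraries 1 to 5.

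**Figure D2:**
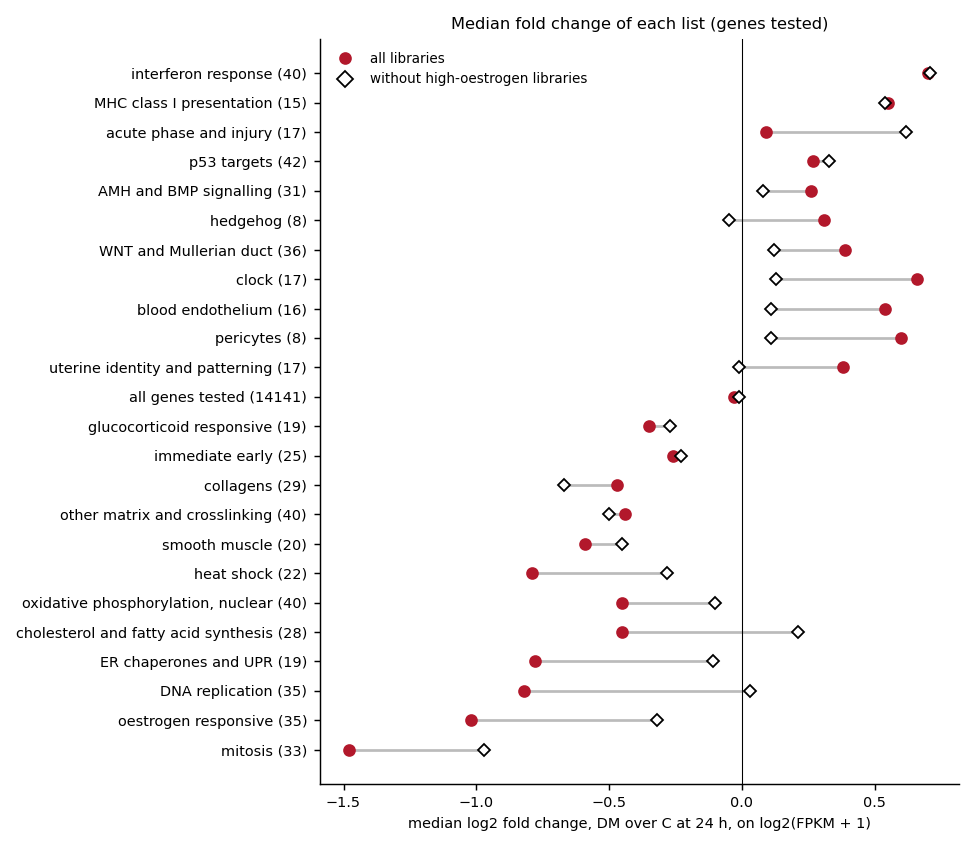
Median log2 fold change, doxorubicin + AMH (DM) over vehicle (C), of each gene list, with the number of genes tested in brackets, from all libraries (filled circles) and without the high-oestrogen libraries (open diamonds). Interferon, MHC class I and p53 medians stay at about the same place (0.70 and 0.71 for interferon), while DNA replication (-0.82 and 0.03) and WNT genes (0.39 and 0.12) move toward 0.

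Of 42 p53 target genes tested, 16 rose, 1 fell and 25 did not pass the test, with a median log2 fold change of 0.27 beside -0.03 over all genes tested. Cdkn1a, which encodes the cell cycle inhibitor p21 (ENSMUSG00000023067; chromosome 17, 29090976 to 29100727, plus strand), was at 20.9, 26, 43.2, 52.3 and 44.2 FPKM in doxorubicin + AMH uteri, against 15.2, 17.6, 6.37, 13.4 and 6.01 FPKM in vehicle uteri. Every treated uterus was above every vehicle uterus, and vehicle uteri 3 and 5 were the lowest. Its log2 fold change was 1.63 ± 0.36 (SE, limma adjusted p = 0.0015), and 2.34 (adjusted p = 0.012) without the high-oestrogen libraries. Ephx1, an epoxide hydrolase that detoxifies reactive epoxides (ENSMUSG00000038776; chromosome 1, 180976210 to 181020904, minus strand), was at 93.5, 89.5, 131, 110 and 109 FPKM in doxorubicin + AMH uteri, against 28, 22.3, 51.3, 26.5 and 38.7 FPKM in vehicle uteri. The groups were widely separated, with a log2 fold change of 1.7 ± 0.21 (SE, limma adjusted p = 3.6e-06) and, without the high-oestrogen libraries, 1.23 (adjusted p = 0.0085). Without those libraries 3 p53 targets were called and all rose, Cdkn1a, Ephx1 and Gdf15, with a median over the list of 0.33. Bbc3, the pro-apoptotic protein PUMA, was at 11.1, 13.3, 12.2, 12.9 and 13.1 FPKM in doxorubicin + AMH uteri, against 3.78, 2.02, 6.6, 2.66 and 4.54 FPKM in vehicle uteri. Its groups also did not overlap (log2 fold change 1.53 ± 0.25 (SE, limma adjusted p = 9.9e-05)), and it was not called without the high-oestrogen libraries (1.06 (adjusted p = 0.072)). Ccng1, a cyclin-like p53 target, rose by 0.91 ± 0.23 (SE, limma adjusted p = 0.0034), and Mdm2, the ubiquitin ligase that degrades p53, by 0.38 ± 0.15 (SE, limma adjusted p = 0.042), but neither passed without those libraries (Ccng1 1.01 (adjusted p = 0.13) and Mdm2 0.4 (adjusted p = 0.42)). Pmaip1, the pro-apoptotic protein NOXA, was the member that fell, at 1.04, 0.817, 1.32, 1.76 and 0.931 FPKM in doxorubicin + AMH uteri, against 4.18, 5.25, 1.44, 2.43 and 1.69 FPKM in vehicle uteri, with a log2 fold change of -0.8 ± 0.22 (SE, limma adjusted p = 0.0075). Trp53 itself was at 30.4 to 39.8 FPKM in doxorubicin + AMH uteri, against 32.4 to 44.1 FPKM in vehicle uteri, with an adjusted p of 0.41.

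The inhibitors Id1, Id2, Id3 and Smad6 and the signal carrier Smad9, all of the AMH and BMP pathway, were higher in the treated uteri. Across the AMH and BMP list of 31 genes tested, 14 rose, 4 fell and the median log2 fold change was 0.26. Without the high-oestrogen libraries 5 rose and 0 fell, and the median was 0.08. Those 5 were Id1, Id2, Id3, Smad6 and Smad9. Id3, an inhibitor of DNA binding that blocks differentiation factors (ENSMUSG00000007872; chromosome 4, 136143497 to 136145755, plus strand), was at 78.3, 80.1, 79.4, 57.9 and 71.4 FPKM in doxorubicin + AMH uteri, against 33.4, 20.4, 31.8, 21.6 and 40.2 FPKM in vehicle uteri. Its lowest treated value lay above its highest vehicle value, and its log2 fold change was 1.32 ± 0.17 (SE, limma adjusted p = 7.6e-06), or 1.01 (adjusted p = 0.014) without the high-oestrogen libraries. Id2, whose promoter is printed above, was at 58.8, 58.1, 74.5, 53.7 and 57.2 FPKM in doxorubicin + AMH uteri, against 33.2, 20.3, 39.3, 26 and 35.6 FPKM in vehicle uteri. The groups did not overlap (log2 fold change 0.97 ± 0.14 (SE, limma adjusted p = 1.7e-05), or 0.67 (adjusted p = 0.021) without those libraries). Id1 was at 85.3, 110, 89.2, 89.6 and 86.9 FPKM in doxorubicin + AMH uteri, against 73.6, 72, 42.9, 54.8 and 52.4 FPKM in vehicle uteri, with a log2 fold change of 0.65 ± 0.18 (SE, limma adjusted p = 0.0055), or 0.94 (adjusted p = 0.035). Its groups did not overlap, and vehicle uteri 3 to 5 were the lowest. Smad9, 1 of the SMADs that AMH receptors activate (ENSMUSG00000027796; chromosome 3, 54755582 to 54801257, plus strand), was low in both groups, at 1.85, 1.43, 1.82, 1.18 and 1.7 FPKM in doxorubicin + AMH uteri, against 0.336, 0.114, 0.538, 0.211 and 0.587 FPKM in vehicle uteri. All 5 treated uteri were above 1 FPKM and all 5 vehicle uteri below it (log2 fold change 0.94 ± 0.14 (SE, limma adjusted p = 4.7e-05), or 0.73 (adjusted p = 0.029)). This gene passed the filter only through the treated group. Smad6, an inhibitor of BMP signalling, was at 8.1 to 13.4 FPKM in doxorubicin + AMH uteri, against 5.53 to 7.63 FPKM in vehicle uteri, a log2 fold change of 0.54 ± 0.1 (SE, limma adjusted p = 0.00033), or 0.57 (adjusted p = 0.033).

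The receptors did not share this pattern. Amhr2, the AMH type II receptor, was at 3.51, 3.81, 8.32, 5.17 and 4.06 FPKM in doxorubicin + AMH uteri, against 1.08, 1.29, 4.38, 3.32 and 3.62 FPKM in vehicle uteri, with vehicle uteri 1 and 2 the lowest. It rose by 0.72 ± 0.28 (SE, limma adjusted p = 0.038) and was not called without the high-oestrogen libraries (0.21 (adjusted p = 0.86)). The type I receptors Acvr1 and Bmpr1a fell, with log2 fold changes of -0.48 ± 0.1 (SE, limma adjusted p = 0.00063) and -0.25 ± 0.09 (SE, limma adjusted p = 0.022). Amh itself did not reach the filter and was at 0 to 0.515 FPKM in doxorubicin + AMH uteri, against 0.0408 to 2.32 FPKM in vehicle uteri. Coch, a secreted matrix protein placed in this list with earlier results of these data known, was at 101, 68.1, 87.7, 14.4 and 44.1 FPKM in doxorubicin + AMH uteri, against 1.68, 0.136, 19.1, 0.834 and 12.3 FPKM in vehicle uteri. Its treated values covered a wide range with uterus 4 lowest, and overlapped those of vehicle uterus 3. Its log2 fold change of 3.63 ± 0.67 (SE, limma adjusted p = 0.00032) was the highest among the 183 named genes, and it was 1.71 (adjusted p = 0.18) without the high-oestrogen libraries. Atoh8, a transcription factor induced by BMP signals in other tissues, rose by 1.06 ± 0.22 (SE, limma adjusted p = 0.00095), with 0.58 (adjusted p = 0.31) without those libraries. Bmp7, a BMP ligand, was at 19.5, 18.9, 14.4, 13.8 and 15.7 FPKM in doxorubicin + AMH uteri, against 4.48, 1.1, 14.3, 5 and 16 FPKM in vehicle uteri. Vehicle uteri 3 and 5 lay within the treated range, and the log2 fold change of 1.28 ± 0.34 (SE, limma adjusted p = 0.0047) became 0.1 (adjusted p = 0.88) without the high-oestrogen libraries.

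Of 8 hedgehog genes tested 3 rose and none fell, beside 16.9% higher of all genes tested, with a median of 0.31 and, without the high-oestrogen libraries, -0.05. Ptch1, the main hedgehog receptor, was at 7.98 to 9.61 FPKM in doxorubicin + AMH uteri, against 2.07 to 5.95 FPKM in vehicle uteri, without overlap between the groups. Its log2 fold change was 1.06 ± 0.17 (SE, limma adjusted p = 7e-05), or 0.51 (adjusted p = 0.03) without the high-oestrogen libraries. The pathway's transcription factor Gli1 was at 30.1, 25.9, 24.7, 27.4 and 31.1 FPKM in doxorubicin + AMH uteri, against 8.43, 2.91, 21.9, 11.6 and 32.1 FPKM in vehicle uteri. Its vehicle uterus 5 was above every treated uterus, and the log2 fold change of 1.16 ± 0.33 (SE, limma adjusted p = 0.0075) became 0.06 (adjusted p = 0.95) without the high-oestrogen libraries. Gli1 overlaps the gene Arhgap9, and reads of the 2 may not be separable.

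Among secreted injury genes, 5 of 17 tested rose and 1 fell, beside 16.9% higher and 21.2% lower of all genes tested. The median was 0.09, and 0.62 without the high-oestrogen libraries. Serpina3n, a serine protease inhibitor of the acute phase (ENSMUSG00000021091; chromosome 12, 104406729 to 104414329, plus strand), was at 11.6, 13.4, 9.46, 25 and 19.7 FPKM in doxorubicin + AMH uteri, against 1.03, 4.16, 1.03, 3.98 and 0.778 FPKM in vehicle uteri. The groups did not overlap, and the log2 fold change was 2.48 ± 0.5 (SE, limma adjusted p = 0.00075), or 3.07 (adjusted p = 0.021) without the high-oestrogen libraries. Slpi, an antiprotease of mucosal surfaces that stood in no list, was at 4.52, 10, 3.33, 11 and 10.2 FPKM in doxorubicin + AMH uteri, against 1.11, 1.39, 0.342, 0.504 and 0.605 FPKM in vehicle uteri. Its treated uteri 2, 4 and 5 were at 10 FPKM or more, and it rose by 2.22 ± 0.38 (SE, limma adjusted p = 0.00019), or 2.47 (adjusted p = 0.019). Saa3, a serum amyloid made at sites of inflammation, was at 9.48, 4.94, 9.76, 14.8 and 9.21 FPKM in doxorubicin + AMH uteri, against 0.487, 0.183, 0.0664, 0.274 and 0.137 FPKM in vehicle uteri. It was below 1 FPKM in all vehicle uteri, so it too passed the filter only through the treated group. It rose by 3.05 ± 0.61 (SE, limma adjusted p = 0.00067), with 3.2 (adjusted p = 0.061) without the high-oestrogen libraries. Lcn2, an iron-carrier binding protein that oestrogen also raises, went the other way, at 5.51, 6.77, 5.35, 25.1 and 4.9 FPKM in doxorubicin + AMH uteri, against 281, 949, 12.7, 316 and 18.6 FPKM in vehicle uteri. Vehicle uteri 1, 2 and 4 held the high values, and its log2 fold change of -3.76 ± 0.83 (SE, limma adjusted p = 0.0015) became -0.91 (adjusted p = 0.56) without the high-oestrogen libraries. C4b, a complement component, is taken up below with the AMH-alone group.

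**Figure D3:**
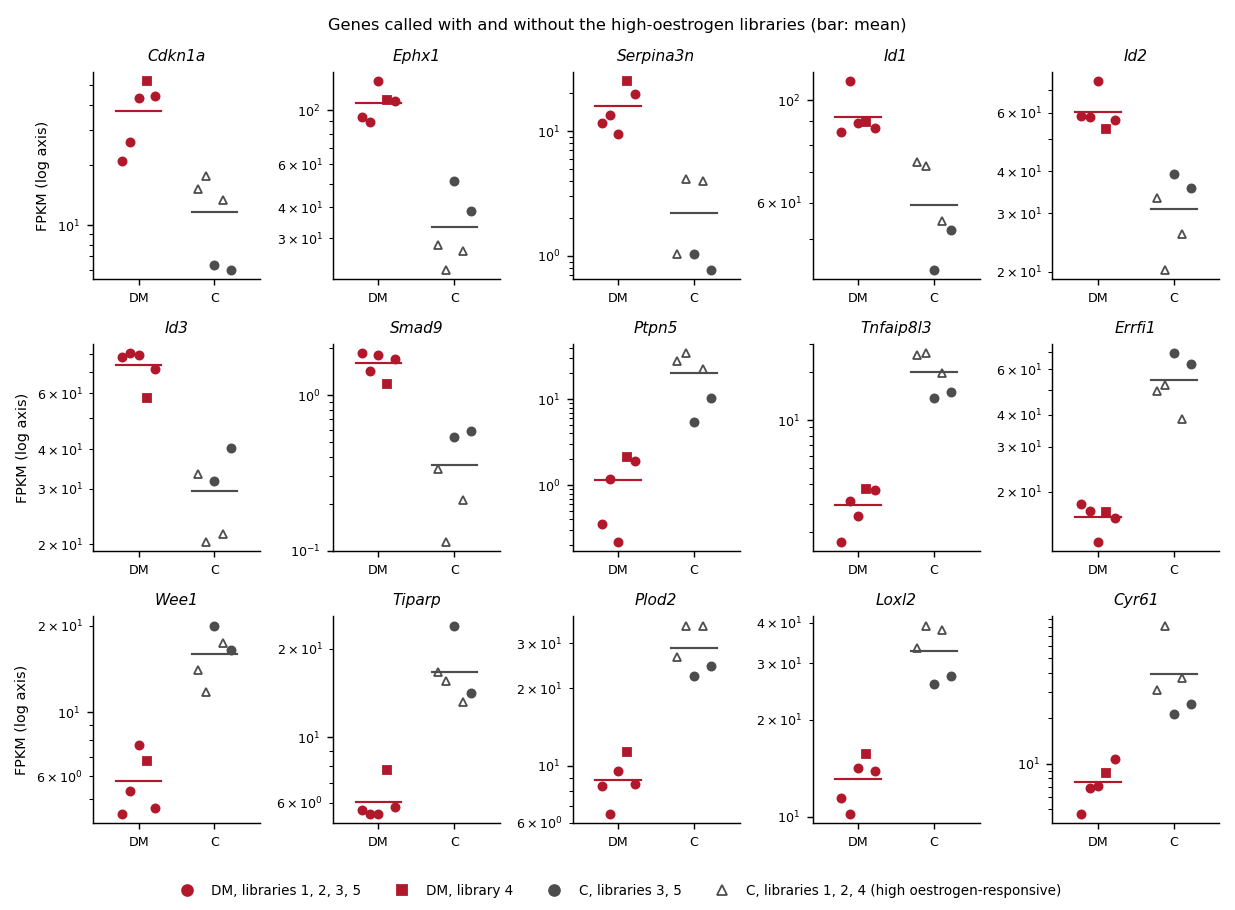
FPKM on a log axis in each doxorubicin + AMH (DM) and vehicle (C) uterus for 15 genes called in all 3 fits, with bars at the means, squares for treated uterus 4 and open triangles for vehicle uteri 1, 2 and 4. Cdkn1a, Ephx1, Serpina3n, the Id genes and Smad9 are higher and Ptpn5, Tnfaip8l3, Errfi1, Wee1, Tiparp, Plod2, Loxl2 and Cyr61 lower in DM, and no panel overlaps. The genes were picked from those called in all 3 fits, so this separation is partly built in.

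Genes that fell in all 3 fits included the phosphatase Ptpn5, the lipid carrier Tnfaip8l3, the feedback inhibitor Errfi1 and the kinase Wee1. Ptpn5, the phosphatase STEP known from neurons (ENSMUSG00000030854; chromosome 7, 47077795 to 47133684, minus strand), was at 0.357, 1.17, 0.22, 2.12 and 1.9 FPKM in doxorubicin + AMH uteri, against 28.1, 34.1, 5.38, 22.7 and 10.4 FPKM in vehicle uteri. All treated uteri were below all vehicle uteri, and the log2 fold change was -3.14 ± 0.39 (SE, limma adjusted p = 3.6e-06), or -2.08 (adjusted p = 0.012) without the high-oestrogen libraries. Tnfaip8l3, a carrier of phosphoinositide lipids (ENSMUSG00000074345; chromosome 9, 54023405 to 54068388, minus strand), was at 1.73, 3.12, 2.52, 3.69 and 3.64 FPKM in doxorubicin + AMH uteri, against 25.6, 26.2, 13.8, 19.9 and 15 FPKM in vehicle uteri. It had the smallest adjusted p among the named genes, together with Ccdc117, at -2.41 ± 0.26 (SE, limma adjusted p = 6.4e-07), and -1.99 (adjusted p = 0.0026) without the high-oestrogen libraries. Errfi1, the feedback inhibitor of the EGF receptor (ENSMUSG00000028967; chromosome 4, 150853919 to 150868892, plus strand), was at 18, 16.9, 12.8, 16.7 and 15.8 FPKM in doxorubicin + AMH uteri, against 49.5, 52, 69.1, 38.5 and 62.9 FPKM in vehicle uteri. Here vehicle uteri 3 and 5, the ones lower in oestrogen-responsive genes, were the highest, and the log2 fold change was -1.68 ± 0.21 (SE, limma adjusted p = 4.4e-06), or -1.98 (adjusted p = 0.00053) without the others. Wee1, the kinase that holds back entry into mitosis (ENSMUSG00000031016; chromosome 7, 110122046 to 110143286, plus strand), was at 4.44, 5.35, 7.67, 6.8 and 4.65 FPKM in doxorubicin + AMH uteri, against 14, 11.8, 20, 17.4 and 16.4 FPKM in vehicle uteri. Its log2 fold change was -1.32 ± 0.2 (SE, limma adjusted p = 3.1e-05), or -1.52 (adjusted p = 0.0011). Tiparp, an ADP-ribosyltransferase induced by the aryl hydrocarbon receptor, was at 5.5 to 7.74 FPKM in doxorubicin + AMH uteri, against 13.2 to 24 FPKM in vehicle uteri, with -1.31 ± 0.18 (SE, limma adjusted p = 1.3e-05) and -1.48 (adjusted p = 0.0028). Jun, a subunit of the AP-1 factor, was at 73.2, 61.7, 54.1, 37.1 and 57 FPKM in doxorubicin + AMH uteri, against 93, 110, 101, 63.3 and 94.9 FPKM in vehicle uteri. Treated uterus 1 exceeded vehicle uterus 4, so the groups overlapped, and the log2 fold change was -0.71 ± 0.17 (SE, limma adjusted p = 0.0023), or -0.81 (adjusted p = 0.021). Of 25 immediate early genes tested 9 fell and 1 rose, beside 21.2% lower of all genes tested. The median was -0.26, and without the high-oestrogen libraries 3 fell and 0 rose.

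Clock genes moved in both directions. Of 17 tested, 9 rose and 5 fell, with a median of 0.66, and of 0.13 without the high-oestrogen libraries, where 1 rose and 2 fell. Nr1d1, the repressor REV-ERB alpha, was at 57, 42.1, 41, 19.4 and 37.3 FPKM in doxorubicin + AMH uteri, against 8.46, 4.41, 19.8, 7.43 and 12.9 FPKM in vehicle uteri. Treated uterus 4 was the lowest of its group and lay just under vehicle uterus 3 (log2 fold change 1.87 ± 0.3 (SE, limma adjusted p = 8.9e-05), or 1.17 (adjusted p = 0.042)). Nfil3, a repressor that opposes Dbp at the same DNA elements, was at 6.86, 8.98, 8.6, 11.8 and 8.78 FPKM in doxorubicin + AMH uteri, against 29, 19.8, 27.1, 19.4 and 28.5 FPKM in vehicle uteri. Its groups did not overlap, with -1.36 ± 0.21 (SE, limma adjusted p = 4.2e-05) and -1.54 (adjusted p = 0.0057). Per1, a core repressor of the clock, fell, with a log2 fold change of -0.73 ± 0.23 (SE, limma adjusted p = 0.014), and overlapped between the groups, and Dbp, an output activator, rose by 1.57 ± 0.34 (SE, limma adjusted p = 0.0013). Dbp was not called without the high-oestrogen libraries (0.67 (adjusted p = 0.43)). Nr1d1 overlaps Thra, and Dbp overlaps Sphk2, so reads may be shared. Cirbp, a cold-inducible RNA-binding protein, was at 69.3, 73.3, 59.1, 43.7 and 76.2 FPKM in doxorubicin + AMH uteri, against 21.4, 17.8, 30.8, 19.2 and 27.3 FPKM in vehicle uteri, without overlap (log2 fold change 1.43 ± 0.22 (SE, limma adjusted p = 6.1e-05), or 1.1 (adjusted p = 0.05)).

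The contractile genes of the uterine muscle wall were lower as a group. Of 20 smooth muscle genes tested 17 fell and none rose, with a median of -0.59, and 13 did not overlap between the groups. Over all genes tested 21.2% fell, and 4.94% were lower without overlap. The list's mean log2(FPKM + 1) was 6.05 to 6.23 in doxorubicin + AMH uteri and 6.58 to 6.93 in vehicle uteri. Without the high-oestrogen libraries the median was -0.45 and only Synpo2 was called. In bulk tissue, fewer muscle cells and less RNA per muscle cell cannot be told apart. Actg2, the enteric smooth muscle actin (ENSMUSG00000059430; chromosome 6, 83512905 to 83536265, minus strand), was at 153, 195, 186, 229 and 226 FPKM in doxorubicin + AMH uteri, against 732, 1020, 417, 703 and 442 FPKM in vehicle uteri. Every treated uterus was below every vehicle uterus (log2 fold change -1.67 ± 0.24 (SE, limma adjusted p = 2.3e-05), or -1.13 (adjusted p = 0.056)). Acta2, the vascular and uterine smooth muscle actin, was at 1340 to 1570 FPKM in doxorubicin + AMH uteri, against 2030 to 3160 FPKM in vehicle uteri, with -0.8 ± 0.15 (SE, limma adjusted p = 0.00047) and -0.52 (adjusted p = 0.24). Cnn1, calponin, a brake on actomyosin, was at 129 to 162 FPKM in doxorubicin + AMH uteri, against 257 to 451 FPKM in vehicle uteri, with -1.19 ± 0.2 (SE, limma adjusted p = 0.00014) and -0.84 (adjusted p = 0.12). Synpo2, an actin-bundling protein, was at 28.7 to 33.2 FPKM in doxorubicin + AMH uteri, against 33.9 to 54 FPKM in vehicle uteri, with -0.49 ± 0.14 (SE, limma adjusted p = 0.0077) and -0.69 (adjusted p = 0.021). Its adjusted p was 0.052 when the rebuilt reads were tested with voom. Acta1, the skeletal muscle actin, which is also made in smooth muscle, was at 30.8, 29.2, 34.4, 54.9 and 36.5 FPKM in doxorubicin + AMH uteri, against 216, 148, 72, 133 and 103 FPKM in vehicle uteri, without overlap between the groups.

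Matrix genes fell alongside. Of 29 collagens tested 14 fell and 3 rose, and of 40 other matrix and crosslinking genes 20 fell and 3 rose, with medians of -0.47 and -0.44. Without the high-oestrogen libraries 2 collagens and 5 other matrix genes fell, none rose, and the medians were -0.67 and -0.50. The second list's mean log2(FPKM + 1) was 4.43 to 4.59 in doxorubicin + AMH uteri and 4.86 to 5.04 in vehicle uteri. Plod2, the lysyl hydroxylase that prepares collagen for crosslinking (ENSMUSG00000032374; chromosome 9, 92542223 to 92608428, plus strand), was at 8.38, 6.51, 9.55, 11.3 and 8.49 FPKM in doxorubicin + AMH uteri, against 26.5, 35.1, 22.3, 34.9 and 24.5 FPKM in vehicle uteri. Its groups did not overlap, with -1.59 ± 0.2 (SE, limma adjusted p = 4.4e-06) and -1.33 (adjusted p = 0.0026). Loxl2, a lysyl oxidase that forms crosslinks, was at 11.4, 10.2, 14.2, 15.7 and 13.9 FPKM in doxorubicin + AMH uteri, against 33.3, 39.2, 25.9, 38.1 and 27.4 FPKM in vehicle uteri, with -1.26 ± 0.18 (SE, limma adjusted p = 2e-05) and -0.99 (adjusted p = 0.019). Cyr61, a matricellular protein that YAP and growth factors induce, was at 4.67, 6.94, 7.12, 8.73 and 10.7 FPKM in doxorubicin + AMH uteri, against 30.9, 81.9, 21.2, 36.9 and 25 FPKM in vehicle uteri. Vehicle uterus 2 was far above the others, yet the lowest vehicle value was higher than any treated value (log2 fold change -2.09 ± 0.28 (SE, limma adjusted p = 8.5e-06), or -1.52 (adjusted p = 0.02)). Sparc, a collagen-binding glycoprotein, was at 394 to 590 FPKM in doxorubicin + AMH uteri, against 814 to 1090 FPKM in vehicle uteri, with -0.97 ± 0.16 (SE, limma adjusted p = 9.9e-05) and -0.88 (adjusted p = 0.035). Col4a1, of basement membranes, and Col5a3, a minor fibrillar chain, fell, with log2 fold changes of -0.95 ± 0.17 (SE, limma adjusted p = 0.00021) and -0.87 ± 0.15 (SE, limma adjusted p = 0.00023), or -0.84 (adjusted p = 0.04) and -0.93 (adjusted p = 0.019). Col1a2 and Col3a1, chains of the main fibrillar collagens, fell, with log2 fold changes of -1.32 ± 0.25 (SE, limma adjusted p = 0.00042) and -0.99 ± 0.22 (SE, limma adjusted p = 0.0016) and did not overlap, but did not pass without the high-oestrogen libraries (-1.07 (adjusted p = 0.11) and -1.03 (adjusted p = 0.087)). Adam19, a membrane protease, was at 6.55 to 8.09 FPKM in doxorubicin + AMH uteri, against 12.6 to 17.9 FPKM in vehicle uteri, with -0.93 ± 0.11 (SE, limma adjusted p = 1.8e-06) and -0.81 (adjusted p = 0.0032).

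Chaperones were lower too. Most of their calls were lost without the high-oestrogen libraries, and most also in the fit of the 10 libraries alone. Of 22 heat shock genes tested 21 fell and none rose, with a median of -0.79, while without the high-oestrogen libraries 3 fell and the median was -0.28. In the fit of the 10 libraries alone 8 fell. Hspa1b, an inducible HSP70 (ENSMUSG00000090877; chromosome 17, 34956436 to 34959238, minus strand), was at 24.2, 22.3, 20, 31.3 and 21.7 FPKM in doxorubicin + AMH uteri, against 159, 152, 37.9, 64.5 and 56 FPKM in vehicle uteri. Vehicle uteri 1 and 2 were the highest, yet vehicle uterus 3 still exceeded all treated uteri (log2 fold change -1.72 ± 0.26 (SE, limma adjusted p = 3.4e-05), or -0.94 (adjusted p = 0.046)). Its copy Hspa1a, with the promoter printed above, was at 9.03, 8.76, 6.93, 5.86 and 8.95 FPKM in doxorubicin + AMH uteri, against 29.3, 22.1, 15.5, 10.7 and 21.7 FPKM in vehicle uteri, with -1.17 ± 0.19 (SE, limma adjusted p = 0.00011) and -1.14 (adjusted p = 0.0033). Reads can be shared between these near-identical copies. Chordc1, an HSP90 co-chaperone, was at 6.6 to 11.2 FPKM in doxorubicin + AMH uteri, against 11.4 to 28.4 FPKM in vehicle uteri, with -1.04 ± 0.14 (SE, limma adjusted p = 1.3e-05) and -0.61 (adjusted p = 0.03). Of 19 ER chaperone genes 16 fell, with a median of -0.78, and none was called without the high-oestrogen libraries (median -0.11, 1 lower at an unadjusted p under 0.05). The fit of the 10 libraries alone, with all vehicle uteri, called 0 of them. Hspa5, the ER chaperone BiP, was at 80.4, 69.3, 112, 301 and 82.1 FPKM in doxorubicin + AMH uteri, against 466, 329, 105, 251 and 226 FPKM in vehicle uteri. Treated uterus 4, the one high in oviduct markers, was above vehicle uteri 3, 4 and 5, and the part of oviduct tissue in this was not tested. When all libraries high in oviduct markers were left out, the list median was -1.09 for ER chaperone genes and -0.93 for heat shock genes. Mcl1, a survival protein of the BCL2 family, was narrow in both groups, at 65.2, 63.2, 65.4, 63.4 and 61 FPKM in doxorubicin + AMH uteri, against 103, 114, 83, 90.3 and 85 FPKM in vehicle uteri, with -0.56 ± 0.08 (SE, limma adjusted p = 2.5e-05) and -0.39 (adjusted p = 0.035). Top1, topoisomerase I, was at 8.64 to 13.3 FPKM in doxorubicin + AMH uteri, against 13.6 to 22.3 FPKM in vehicle uteri, with -0.8 ± 0.12 (SE, limma adjusted p = 4.4e-05) and -0.54 (adjusted p = 0.045). Top2b, the doxorubicin target of resting cells, was at 10.8 to 13.7 FPKM in doxorubicin + AMH uteri, against 11.2 to 15 FPKM in vehicle uteri, with an adjusted p of 0.23.

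Many interferon-stimulated genes rose, and they kept their median size but not their calls without the high-oestrogen libraries. Of 40 tested 19 rose and none fell, with a median of 0.70, and 13 did not overlap between the groups. Over all genes tested 16.9% rose, and 4.04% were higher without overlap. Without the high-oestrogen libraries the median was 0.71 and limma called 0 genes, while 20 were higher and 0 lower at an unadjusted p under 0.05. Over all genes tested in that fit, 787 were higher and 1001 lower at that p. The list's mean log2(FPKM + 1) was 3.46 to 4.01 in doxorubicin + AMH uteri and 2.63 to 3.39 in vehicle uteri, with vehicle uterus 2 the highest of its group. Ifit3, a blocker of viral RNA translation (ENSMUSG00000074896; chromosome 19, 34583531 to 34588731, plus strand), was at 41.4, 31.7, 34.1, 32.8 and 59.9 FPKM in doxorubicin + AMH uteri, against 1.9, 5.31, 6.98, 5.76 and 8.35 FPKM in vehicle uteri. The lowest treated uterus was well above the highest vehicle uterus (log2 fold change 2.68 ± 0.46 (SE, limma adjusted p = 0.00019), or 2.2 (adjusted p = 0.079)). Its copy Ifit3b, with the same printed promoter run, was at 13.3, 6.98, 8.81, 7.44 and 16.8 FPKM in doxorubicin + AMH uteri, against 0.717, 1.4, 2.34, 1.7 and 2.62 FPKM in vehicle uteri, with 2.06 ± 0.39 (SE, limma adjusted p = 0.00043). Reads can be shared between these copies. Rsad2, the antiviral enzyme viperin, was at 11.6, 9.53, 8.81, 7.03 and 11.9 FPKM in doxorubicin + AMH uteri, against 0.822, 0.959, 4.98, 1.83 and 4.25 FPKM in vehicle uteri, with 1.75 ± 0.41 (SE, limma adjusted p = 0.0023) and 0.92 (adjusted p = 0.43). Irf7, the factor that amplifies interferon production, was at 21.5, 17.9, 14.3, 18.3 and 28.9 FPKM in doxorubicin + AMH uteri, against 6.67, 17.6, 5.98, 5.3 and 6.51 FPKM in vehicle uteri. Vehicle uterus 2 reached the treated range while the other 4 vehicle uteri did not (log2 fold change 1.26 ± 0.38 (SE, limma adjusted p = 0.011)). Irf7 overlaps Phrf1. Of 15 genes of MHC class I presentation 8 rose and none fell, with a median of 0.55, and 0.54 without the high-oestrogen libraries, where none was called and 11 were higher at an unadjusted p under 0.05. H2-Q6 and H2-Q4, non-classical class I genes with near-identical relatives, rose by 1.48 ± 0.32 (SE, limma adjusted p = 0.0014) and 1.02 ± 0.25 (SE, limma adjusted p = 0.0033). In both, treated uterus 4 lay within the vehicle range. Tap2, a subunit of the peptide transporter, rose by 0.56 ± 0.13 (SE, limma adjusted p = 0.0018).

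Many other calls were lost without the high-oestrogen libraries. For the lists in this paragraph most were also lost in the fit of the 10 libraries alone, with all vehicle uteri kept. Sprr2f, a cornified-envelope protein that oestrogen induces in uterine epithelium, was at 2.57, 3.81, 1.77, 21.5 and 4.36 FPKM in doxorubicin + AMH uteri, against 270, 2500, 7.3, 369 and 13.4 FPKM in vehicle uteri. Vehicle uteri 3 and 5 lay within the treated range, and the log2 fold change of -4.46 ± 1.01 (SE, limma adjusted p = 0.0018) became -0.95 (adjusted p = 0.66) without the high-oestrogen libraries. Of 35 oestrogen-responsive genes 19 fell and 3 rose, with a median of -1.02, and none was called without those libraries (median -0.32, with 2 higher and 2 lower at an unadjusted p under 0.05). The libraries left out were chosen by the level of these same genes, so the shrinking of this list was built in and is no separate result. In the fit of the 10 libraries alone 5 fell and 1 rose. Mki67, a marker of cycling cells, was at 2.15, 2.01, 6.59, 2.43 and 1.46 FPKM in doxorubicin + AMH uteri, against 3.35, 19.8, 9.38, 40.2 and 8.29 FPKM in vehicle uteri. Vehicle uteri 2 and 4 were the highest and vehicle uterus 1 the lowest of its group, and the log2 fold change of -1.84 ± 0.69 (SE, limma adjusted p = 0.034) became -1.45 (adjusted p = 0.49) without the high-oestrogen libraries. Of 33 mitosis genes 26 fell, with a median of -1.48, and of 35 DNA replication genes 15 fell, with a median of -0.82. In the fit of the 10 libraries alone 3 and 1 fell. The mitosis list's mean log2(FPKM + 1) was 1.0 to 2.06 in doxorubicin + AMH uteri, against 1.69, 3.65, 2.47, 4.35 and 2.19 in vehicle uteri 1 to 5. Each vehicle uterus but the first was above every treated one. Without the high-oestrogen libraries none of either list was called or had an unadjusted p under 0.05, and the medians were -0.97 and 0.03. Of 40 nuclear genes of oxidative phosphorylation 31 fell, with a median of -0.45, and none did without those libraries (median -0.10, 0 at an unadjusted p under 0.05). In the fit of the 10 libraries alone 0 fell too. Top2a, the doxorubicin target of dividing cells, was at 2.59, 2.13, 7.33, 3.8 and 1.46 FPKM in doxorubicin + AMH uteri, against 6.54, 28.5, 8.89, 52.8 and 6.84 FPKM in vehicle uteri, with -1.94 ± 0.69 (SE, limma adjusted p = 0.028) and -1.12 (adjusted p = 0.6). The oestrogen receptor gene Esr1 was at 37.4 to 46.2 FPKM in doxorubicin + AMH uteri, against 37.7 to 51.9 FPKM in vehicle uteri, with an adjusted p of 0.39, and the progesterone receptor gene Pgr at 38 to 61.3 FPKM in doxorubicin + AMH uteri, against 36.6 to 50.6 FPKM in vehicle uteri, with 0.31.

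Vessel, patterning and WNT genes rose on the same terms. Of 16 blood endothelial genes 11 rose, of 8 pericyte genes 6, of 17 uterine patterning genes 6, and of 36 WNT and Müllerian duct genes 17 rose and 1 fell. Their medians were 0.54, 0.60, 0.38 and 0.39, and without the high-oestrogen libraries 0.11, 0.11, -0.01 and 0.12, with no gene called in any of the 4 lists. At an unadjusted p under 0.05 that fit had 1 blood endothelial gene higher, 0 pericyte genes, 2 patterning genes higher and 3 lower, and 8 WNT and Müllerian duct genes higher. The fit of the 10 libraries alone called 2, 0, 0 and 7 genes of the 4 lists higher. Wnt16, a WNT ligand, was at 17.1, 12.5, 13.5, 7.61 and 10.5 FPKM in doxorubicin + AMH uteri, against 0.986, 0.563, 13.1, 2.05 and 6.33 FPKM in vehicle uteri. Vehicle uteri 1, 2 and 4 were the lowest, with 1.7 ± 0.35 (SE, limma adjusted p = 0.00091) and 0.34 (adjusted p = 0.64). Tgfbi, a matrix protein that TGF-beta induces, was at 257, 220, 284, 74.8 and 184 FPKM in doxorubicin + AMH uteri, against 17.1, 14.3, 124, 16.4 and 106 FPKM in vehicle uteri. Treated uterus 4 was again the lowest of its group, and the log2 fold change was 2.36 ± 0.51 (SE, limma adjusted p = 0.0012), or 0.69 (adjusted p = 0.57). Pdgfrb, the receptor on pericytes and stroma, was at 27.2 to 47 FPKM in doxorubicin + AMH uteri, against 10.3 to 37.3 FPKM in vehicle uteri, with 0.88 ± 0.24 (SE, limma adjusted p = 0.0061) and 0.09 (adjusted p = 0.9). Cxcl15, a chemokine made by uterine glands, changed sign, with 0.9 ± 0.36 (SE, limma adjusted p = 0.047) and -0.21 (adjusted p = 0.86).

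**Figure D4:**
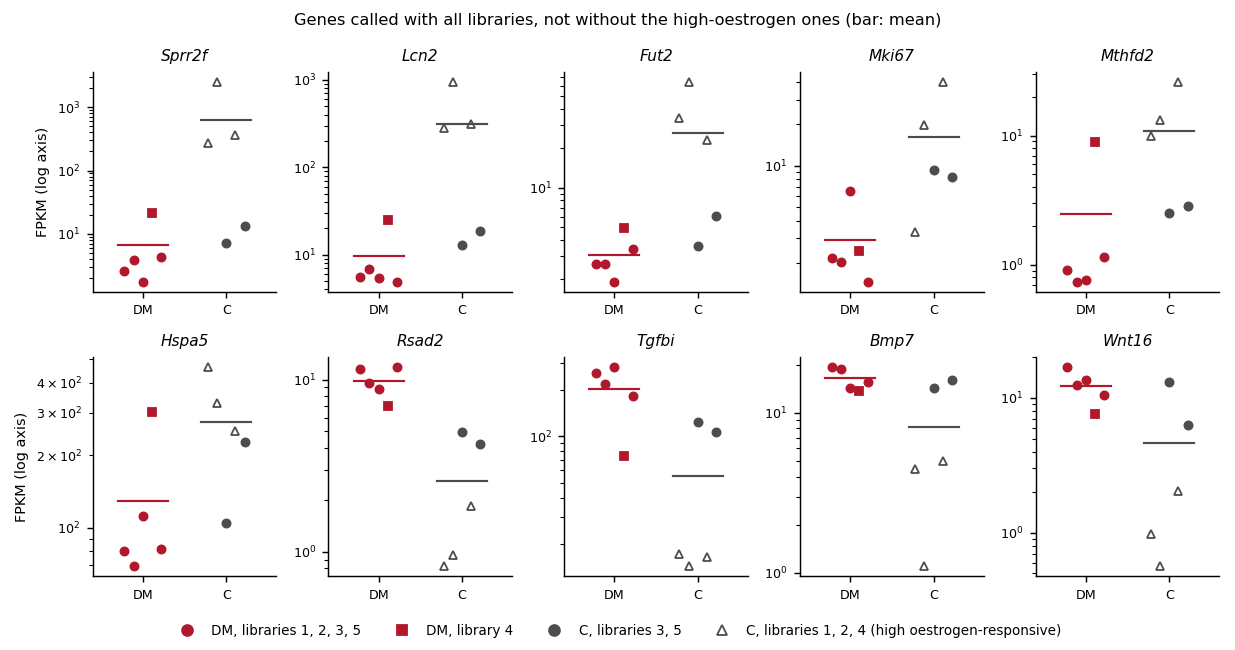
FPKM on a log axis in each doxorubicin + AMH (DM) and vehicle (C) uterus for 10 genes that were called with all libraries but not without the high-oestrogen ones, with bars at the means. In most panels the open triangles (vehicle uteri 1, 2 and 4) hold most of the distance from DM, and vehicle uteri 3 and 5 (filled circles) lie nearer to the DM points, as for Wnt16 at 13.1 and 6.33 FPKM. Exceptions are Mki67 in vehicle uterus 1 and Hspa5, where vehicle uterus 5 lies close to vehicle uterus 4. The genes were picked for losing their call without the triangles, so this layout is partly built in.

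The combined group was also set against each agent alone, gene by gene. Against doxorubicin alone at 24 h, 54 genes differed (0.382% of those tested), 21 higher (0.149%) and 33 lower (0.233%) with AMH added, and 1842 had an unadjusted p under 0.05. With only those 2 groups in the fit limma called 0 genes, and 1851 had an unadjusted p under 0.05. Doxorubicin uteri 3, 4 and 5 were themselves high in oviduct and ciliated cell genes, with a mean log2(FPKM + 1) of 4.69, 4.72 and 4.33. Doxorubicin uterus 4 was also among the high-oestrogen libraries. Without every library of the series high in oviduct markers 55 genes differed. Errfi1 was at 18, 16.9, 12.8, 16.7 and 15.8 FPKM with both agents and 25.5, 46.1, 28.4, 52.6 and 60.7 FPKM with doxorubicin alone, and its level with both was lower by a log2 difference of -1.29 ± 0.21 (SE, limma adjusted p = 0.0036). Wee1 averaged 5.78 ± 1.4 FPKM with both agents and 14.3 ± 4.3 FPKM with doxorubicin alone (SD, n = 5 each, log2 difference -1.16 ± 0.2 (SE, limma adjusted p = 0.0036)). Gm14226, a gene annotated as protein-coding that lies within the agouti gene a, was at 3.32, 3.9, 2.83, 6.38 and 5.41 FPKM with both agents, 0.435, 0.243, 0.876, 0.903 and 1.7 FPKM with doxorubicin alone, 2.91, 3.84, 3.27, 4.1 and 6.57 FPKM with AMH alone and 1.26, 0.42, 1.03, 2.02 and 1.01 FPKM with vehicle. The 2 groups given AMH were the high ones, and the difference from doxorubicin alone was 1.56 ± 0.26 (SE, limma adjusted p = 0.0036). Plod2, Cyr61, Nfil3, Mcl1 and Tiparp were also lower with both agents than with doxorubicin alone, by -1.0 ± 0.2 (SE, limma adjusted p = 0.019) for Plod2 and -1.32 ± 0.28 (SE, limma adjusted p = 0.025) for Cyr61. Gata2, a regulator of progesterone receptor expression in the uterus, was higher by 0.45 ± 0.07 (SE, limma adjusted p = 0.002).

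Against AMH alone at 24 h, 16 genes differed (0.113%), 9 higher (0.0636%) and 7 lower (0.0495%) with both agents, and 2081 had an unadjusted p under 0.05. Cdkn1a was at 20.9, 26, 43.2, 52.3 and 44.2 FPKM with both agents, 39.7, 96.9, 92.7, 82.5 and 52.7 FPKM with doxorubicin alone, 9.12, 6.81, 9.73, 4.26 and 4.62 FPKM with AMH alone and 15.2, 17.6, 6.37, 13.4 and 6.01 FPKM with vehicle. The groups given doxorubicin were the high ones, and the difference from AMH alone was 2.26 ± 0.36 (SE, limma adjusted p = 0.0041). That from doxorubicin alone was -0.95 ± 0.36 (SE, limma adjusted p = 0.26). Ephx1 averaged 107 ± 16.5 FPKM with both agents, 131 ± 42.5 FPKM with doxorubicin alone, 44.7 ± 12.9 FPKM with AMH alone and 33.3 ± 11.7 FPKM with vehicle, and differed from AMH alone by 1.27 ± 0.21 (SE, limma adjusted p = 0.0041). Serpina3n averaged 15.8 ± 6.4 FPKM with both agents and 2.16 ± 1.49 FPKM with AMH alone, a difference of 2.46 ± 0.5 (SE, limma adjusted p = 0.036). Ccng1 was higher than with AMH alone by 1.11 ± 0.23 (SE, limma adjusted p = 0.036), and C4b by 1.36 (adjusted p = 0.038). Ptpn5 averaged 1.15 ± 0.865 FPKM with both agents, 2.61 ± 1.99 FPKM with doxorubicin alone, 7.19 ± 5.3 FPKM with AMH alone and 20.1 ± 12 FPKM with vehicle. It was lower with both agents than with AMH alone by -1.84 ± 0.39 (SE, limma adjusted p = 0.038), and Tnfaip8l3 by -1.28 ± 0.26 (SE, limma adjusted p = 0.038). No Id gene was among the 16, and Id3 differed from AMH alone by 0.56 ± 0.17 (SE, limma adjusted p = 0.18). The median of Id3 was 78.3 FPKM with both agents, 59.5 with doxorubicin alone, 48.5 with AMH alone and 31.8 with vehicle. In the same order the medians were 58.1, 44.7, 48.3 and 33.2 FPKM for Id2 and 89.2, 62.8, 86 and 54.8 FPKM for Id1. For Atoh8 they were 10.8, 11.6, 6.59 and 3.49 FPKM. Against vehicle, the list medians of the single agents stood side by side with those of the combination, all resting on the same 5 vehicle uteri. For interferon genes they were 0.70 with both agents, 1.15 with doxorubicin alone and -0.05 with AMH alone. For AMH and BMP genes they were 0.26 with both agents, 0.19 with doxorubicin alone and 0.14 with AMH alone. For p53 targets they were 0.27 with both agents, 0.46 with doxorubicin alone and -0.11 with AMH alone, and for smooth muscle genes -0.59 with both agents, -0.71 with doxorubicin alone and -0.35 with AMH alone.

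**Figure D5:**
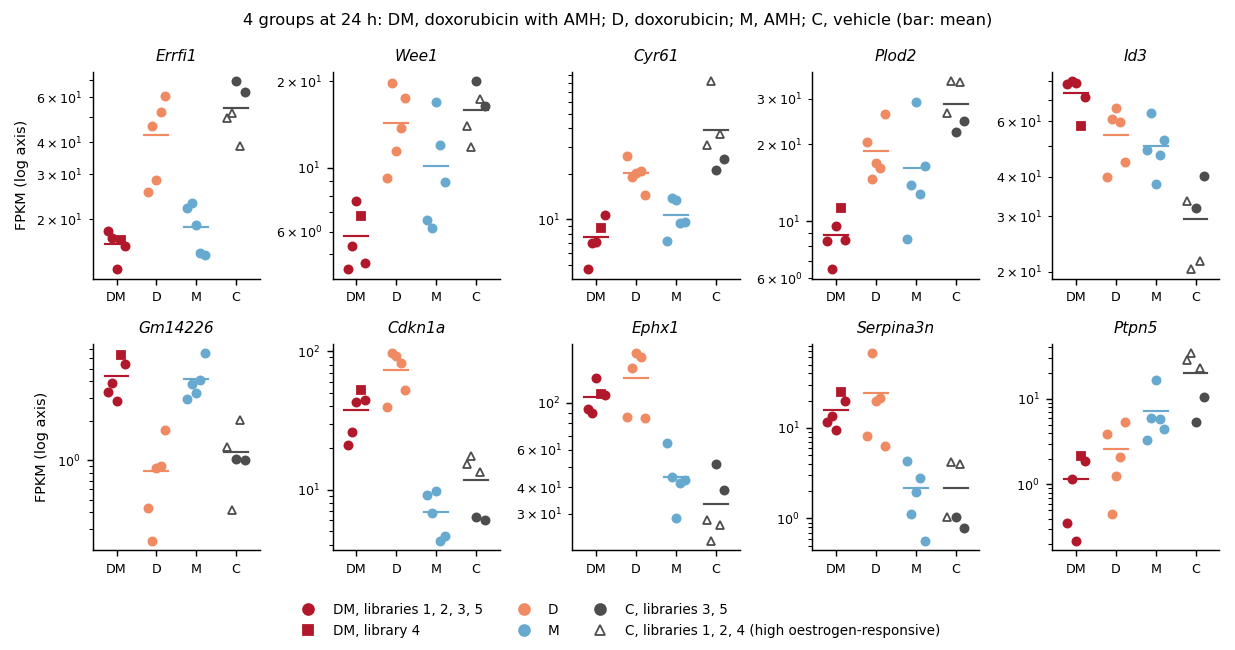
FPKM on a log axis in each uterus at 24 h for 10 genes, with doxorubicin + AMH (DM), doxorubicin alone (D), AMH alone (M) and vehicle (C) from left to right and bars at the means. Cdkn1a and Ephx1 are high in DM and D, Gm14226 in DM and M, and Errfi1 and Cyr61 are low in DM and M.

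The difference between doxorubicin + AMH and vehicle was also set against the same difference at 4 h. It changed for 48 genes (0.339%), 6 upward (0.0424%) and 42 downward (0.297%), and 1843 had an unadjusted p under 0.05. Errfi1 averaged 16 ± 1.97 FPKM with treatment and 54.4 ± 11.9 FPKM with vehicle at 24 h, and 14.4 ± 3.52 FPKM with treatment and 15.1 ± 1.45 FPKM with vehicle at 4 h (SD, n = 5 each). The vehicle means differed more between the times than the treated means did, and the change in the difference was -1.58 ± 0.3 (SE, limma adjusted p = 0.011). Cyr61 had the same layout, with 7.63 ± 2.23 FPKM treated and 39.2 ± 24.6 FPKM vehicle at 24 h, and 6.32 ± 3.01 FPKM treated and 6.96 ± 2.17 FPKM vehicle at 4 h (change -1.92 ± 0.4 (SE, limma adjusted p = 0.02)). Banp, a nuclear matrix protein that binds p53, averaged 5.21 ± 0.553 FPKM treated and 9.8 ± 1.01 FPKM vehicle at 24 h, and 4.06 ± 0.417 FPKM treated and 3.52 ± 0.873 FPKM vehicle at 4 h, a change of -0.97 ± 0.14 (SE, limma adjusted p = 0.00067). Banp shares its locus with the overlapping gene model Gm20388. Ccdc117, Dnajb4, Jun, Mcl1, Hspa1a, Chordc1 and Top1 changed downward too, with changes of -0.74 ± 0.11 (SE, limma adjusted p = 0.00067) for Ccdc117 and -1.15 ± 0.23 (SE, limma adjusted p = 0.019) for Jun. The vehicle uteri at 24 h included the 3 high-oestrogen ones and those at 4 h none, and without such libraries 18 genes changed. For Cdkn1a the change was -1.03 ± 0.51 (SE, limma adjusted p = 0.39), and for Id3 0.63 ± 0.25 (SE, limma adjusted p = 0.26). Neither passed the test.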

How the data were processed

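Per the labels' protocols, total RNA of whole uterus was isolated with a Qiagen kit, and Novogene built the libraries. The authors deposited 1 table of FPKM values per gene for 40 libraries, on build mm10 per the submitters' processing notes. No source used here names the aligner, the counter, the annotation version or the strand setting, so reads of overlapping or near-identical genes may be shared. Of 183 named genes, 30 overlap another protein-coding gene.

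Columns were matched to groups by the labels. The values were taken as log2(FPKM + 1) and genes with 1 FPKM or more in at least 5 of the 10 libraries were kept. limma 3.58.1 (R 4.3.3) was fitted to 8 groups of 5 libraries with 32 residual degrees of freedom and a mean-variance trend, and p-values were adjusted by Benjamini-Hochberg over 14141 genes, with calls at 0.05. The scripts were tested on simulated data. Values worth under 1000 reads gave whole numbers of reads within 0.01 reads (100% of those values), and these rebuilt reads were tested with voom as an alternative, which called 5434 genes and moved the median of all genes by 0.14. Depth was 16828077 to 27391049 reads per library. No pair of libraries within a group agreed as closely as sampling alone would allow (the smallest chi-square was 8.95 per degree of freedom), so none was treated as a repeat deposit.

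The compared libraries and the 58 gene lists were chosen with earlier results of these data known. Genes were chosen by rule: the 10 rising and 10 falling protein-coding genes whose fold change was largest, among those averaging at least 2 FPKM in the higher group, the 10 each with the smallest p in the fit of the 10 libraries, up to 3 called genes per list, the 8 with the smallest p against doxorubicin alone and for the change from 4 h, and a fixed set. The rule took 170 genes, of which the text describes a part. Other results are not reported here. A further 13 (Id1, Smad6, Hspa1a, Per1, Pmaip1, Rsad2, Irf7, Ccng1, Synpo2, Sparc, Wnt16, Dkk3 and Bmp7) were chosen after their values were seen, as was C4b. Alternatives covered the pseudocount, the filter, the scaling, array weights, robust moderation, the groups in the fit, a replicate block and leaving out each library. Leaving out the libraries high in oestrogen-responsive or oviduct genes was added after seeing the data. Figures were drawn with matplotlib 3.10.9.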

Additional observations from a re-analysis of the deposited data

Results flagged for a closer look

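Single libraries that stood far from the other 4 of their group were found for 31 gene and group pairs among the named genes, by the gap to the nearest library as a share of the group's range. Chance alone marks about 1 in 20 groups. Most of these were doxorubicin + AMH uterus 4, the library highest in oviduct markers. It was the highest of its group for the chaperone and stress genes Hspa5 (301 FPKM), Edem1 (15.2), Atf4 (80.2), Mthfd2 (8.87), Chordc1 (11.2) and Dnajb1 (18.2). It was also highest for the sterol synthesis gene Mvd (17.7 FPKM), and for Lcn2 (25.1), Sprr2f (21.5), Cox6a1 (268), Acta1 (54.9), Tiparp (7.74), Top1 (13.3) and Snhg6 (29.8). It was the lowest for Cdkn1c (15.1 FPKM), H2-Q4 (21.4), Nr3c2 (1.78), Uhrf2 (7.68) and Vwf (2.86). Doxorubicin + AMH uterus 3 was the highest for Mki67 (6.59 FPKM), Lgr5 (3.06), Id2 (74.5), Dusp5 (3.47) and Banp (6.19), and uterus 2 for Id1 (110 FPKM). Among vehicle uteri, uterus 2 was the highest for Sprr2f (2500 FPKM), Spink12 (49.9), Cyr61 (81.9) and Irf7 (17.6), uterus 1 for Tnni2 (76.4 FPKM), and uterus 3 for Lyz1 (1.6 FPKM). The part of oviduct tissue or of the level of oestrogen-responsive genes in these values was not tested.

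The difference between doxorubicin + AMH and vehicle changed from 4 h to 24 h, by limma's test of the change itself, for 17 named genes. The log2 changes, 24 h minus 4 h, were downward for Cyr61 (-1.92), Errfi1 (-1.58), Spsb1 (-1.47), Hspa1a (-1.23), Tiparp (-1.21), Jun (-1.15), Dnajb1 (-1.03), Banp (-0.97), Chordc1 (-0.9), 1700017B05Rik (-0.84), Ccdc117 (-0.74), Top1 (-0.74), Dnajb4 (-0.71), Uhrf2 (-0.62), Ccar1 (-0.6), Ammecr1l (-0.59) and Mcl1 (-0.52).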

How the results depend on the processing

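Fits without the libraries high in oestrogen-responsive genes changed the comparison with vehicle most. They called 122 genes, or 52 with only the 2 groups fitted, against 5379. Fitting only the 4 groups of 24 h called 2479, and only the 2 groups 1136. Leaving out 1 library gave 2933 to 6807, with 3460 without vehicle uterus 1 and 2933 without vehicle uterus 2. Pseudocount, filter, scaling, array weights, robust moderation, the block and leaving out libraries high in oviduct markers kept the count within 1.5 times. Of the named genes, 43 kept their call state without the high-oestrogen libraries, 136 lost it and 3 changed sign, or 27, 152 and 3 with only the 2 groups fitted. With only the 2 groups fitted and no library left out, 67 lost their call and 0 changed sign. The 3 that changed sign were the same in both fits without the high-oestrogen libraries: Cxcl15 (-0.21), Krt19 (0.26) and Mvd (0.02), against 0.90, -0.79 and -1.14 with all libraries.

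Against doxorubicin alone, 54 calls became 2156 with array weights, 28 with a filter at 5 FPKM, 25 with no filter, 7 with the 4 groups of 24 h, 0 with the 2 groups alone and 90 without the high-oestrogen libraries, and 13 to 234 with 1 library left out (234 without doxorubicin uterus 5). Against AMH alone, 16 became 2066 with array weights, 9 with no filter, 2 with the 4 groups of 24 h, 7 without the high-oestrogen libraries, 114 without those high in oviduct markers, and 3 to 493 with 1 library left out (493 without AMH uterus 1). For the change from 4 h, 48 became 2722 with array weights, 30 with no filter, 14 with only the groups compared, 15 with voom, 18 without the high-oestrogen libraries, 29 without those high in oviduct markers, and 16 to 238 with 1 library left out (238 without vehicle uterus 3). The cause was not tested.

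Same-numbered libraries of the 2 groups had correlations of deviations from -0.16 to 0.483, and 3 of 5 treated libraries correlated best with their own number. These values do not settle whether the numbers mark pairs. No source used here states a pairing, and the main fit did not take the numbers as pairs. With a replicate block 5125 genes were called against vehicle, 45 against doxorubicin alone, 15 against AMH alone and 44 for the change from 4 h.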

Other observations

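Traces of neighbouring tissue varied between the 10 libraries. Krt5, a keratin of the squamous lower tract, was at 0 to 39.8 FPKM in doxorubicin + AMH uteri and 1.0 to 43.6 FPKM in vehicle uteri. Adipoq, an adipocyte hormone, was at 0 to 16.6 FPKM in doxorubicin + AMH uteri and 3.11 to 9.26 FPKM in vehicle uteri. Cyp11a1, the first enzyme of ovarian steroid synthesis, was at most 0.0325 FPKM in doxorubicin + AMH uteri and at 3.25 FPKM in vehicle uterus 4, which also had 2.32 FPKM of Amh.

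Macrophage genes were called lower about as often as all genes. Of 17 tested, 4 fell and 1 rose, beside 21.2% lower and 16.9% higher of all genes tested, with a median log2 fold change of -0.15 (0.01 with voom), and none was called without the high-oestrogen libraries, where 4 were lower at an unadjusted p under 0.05. Mrc1, the mannose receptor of resident macrophages, was at 3.63 to 5.09 FPKM in doxorubicin + AMH uteri, against 5.91 to 12.1 FPKM in vehicle uteri, with a log2 fold change of -0.76 ± 0.16 (SE, limma adjusted p = 0.0012) and -0.47 (adjusted p = 0.29) without those libraries. Cd163, a haemoglobin scavenger receptor, fell, with a log2 fold change of -0.65 ± 0.16 (SE, limma adjusted p = 0.003), as did Lyve1, shared with lymphatic vessels, with -0.66 ± 0.15 (SE, limma adjusted p = 0.0015). Of 51 cytosolic ribosomal protein genes 3 rose and none fell, with a median of 0.09. The 13 mitochondrially encoded genes had no call (4 at an unadjusted p under 0.05) and a median of -0.27, beside 31 falls among 40 nuclear genes of oxidative phosphorylation.

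Several rising genes stood in no list. Hpgds, the synthase of prostaglandin D2 in blood-forming cells, was at 9.6, 8.35, 8.99, 8.48 and 8.08 FPKM in doxorubicin + AMH uteri, against 0.752, 0.986, 2.96, 1.53 and 2.95 FPKM in vehicle uteri. All treated uteri were above all vehicle uteri, at 1.85 ± 0.4 (SE, limma adjusted p = 0.0013), with 1.29 (adjusted p = 0.29) without the high-oestrogen libraries. Lyz1, a lysozyme, was at 4.99, 5.18, 2.95, 3.2 and 3.59 FPKM in doxorubicin + AMH uteri, against 0.551, 0.594, 1.6, 0.754 and 0.848 FPKM in vehicle uteri, without overlap, at 1.42 ± 0.26 (SE, limma adjusted p = 0.00027), with 1.16 (adjusted p = 0.096) without the high-oestrogen libraries. Ly6c1, a surface protein of endothelium and immune cells, was at 48.2 to 58.2 FPKM in doxorubicin + AMH uteri, against 25 to 33.7 FPKM in vehicle uteri, at 0.76 ± 0.15 (SE, limma adjusted p = 0.00067), with 0.6 (adjusted p = 0.16).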
